A study of Mus musculus with 4 samples.

Results

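The genes described here encode the nuclear subunits of the mitochondrial respiratory chain and of ATP synthase. They were chosen by symbol from the GENCODE M21 annotation of the mouse genome (mm10): protein-coding genes whose symbols start with Nduf, Uqcr, Cox4 to Cox8 or Atp5, together with Sdha, Sdhb, Sdhc, Sdhd, Cyc1 and Cycs. This gave 95 of 21,829 protein-coding genes. They are 7 core and 29 accessory subunits of complex I, 4 genes of complex II, 9 of complex III, cytochrome c, 19 of complex IV, 16 of complex V and 10 assembly or other factors that carry the same prefixes. Ndufa4 and its paralog Ndufa4l2 were counted with complex IV, because the NDUFA4 protein is known as a subunit of cytochrome c oxidase. Symbols are those of GENCODE M21, in which the ATP synthase genes keep their older names.

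Complexes I and II pass electrons from NADH and succinate to ubiquinone, complex III passes them on to cytochrome c, and complex IV reduces oxygen. Complex V uses the proton gradient that complexes I, III and IV build up to make ATP. Most subunits are encoded in the nucleus, and some complex IV subunits have isoform genes that are used mainly in muscle, lung, testis or other tissues in place of the widely used gene.

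The cells were 3T3-L1, an immortalized line of mouse embryo fibroblasts that can turn into fat cells. The labels give the strain as C57BL/6J and name no treatment, no age and no sex, and nothing in them separates the samples except replicate numbers. The assay was DNase-seq, which sequences the ends that the nuclease DNase I leaves where it cuts open chromatin, in 4 libraries of 2 biosamples with 2 technical libraries each. The authors deposited 1 list of peaks and 1 list of hotspots (regions of enriched cutting) per biosample, made from both of its libraries.

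Biosample 1 had 298,793 peaks and biosample 2 had 97,430. The peaks are windows of 150 bp (298,792 of the 298,793 in biosample 1 and all in biosample 2), and each has a score, a whole number up to 150 that is the authors' own value. What it measures is not defined in the labels or the files. A score was therefore read only as a percentile within its own list. Depth per library was unknown. With 1 pooled list per biosample there is no spread between replicates, so no difference below was tested, and counts and medians are set beside the same values over all protein-coding genes. Of 10 fibroblast and preadipocyte markers, 9 had promoter peaks in each list (Dlk1 had one in biosample 1 alone), against 1 of 8 mature adipocyte markers (Plin1, while Fabp4, Cidec and Lep had one in biosample 1 alone), 0 of 8 skeletal and heart muscle markers, 0 of 4 germ cell markers (Dazl had one in biosample 1 alone), 0 of 3 blood, 0 of 3 hepatocyte and 0 of 3 epithelial markers, 2 of 3 endothelial markers (Pecam1 and Cdh5) and 1 of 3 neuronal markers (Rbfox3).

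A gene was called open where a peak came within 1000 bp of any of its protein-coding start sites. By this rule 87 of the 95 genes (91.6%) were open in both lists, against 51.8% of all protein-coding genes. Biosample 1 alone had a promoter peak at 91 of the 95, against a background of 62.6%, and biosample 2 alone at 87, against 51.9%. The 87 genes included all 7 core and all 29 accessory subunits of complex I, all 4 genes of complex II, all 9 of complex III, Cycs, all 16 of complex V and all 10 factors. Complex IV was the exception, with 11 of 19. The 8 genes that were not open in both lists were the 8 tissue-restricted isoforms Cox4i2, Cox6a2, Cox6b2, Cox7a1, Cox7b2, Cox8b, Cox8c and Ndufa4l2.

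The peaks at the open genes stood high in their lists. The median percentile of the strongest promoter peak was 96.0 over the 91 genes in biosample 1 (quartiles 93.1 and 97.9) and 88.9 over the 87 in biosample 2 (quartiles 83.0 and 94.1). All open protein-coding genes had medians of 94.2 and 86.4, and open genes with CpG-rich promoters 96.0 and 87.7, so the members' medians were close to those of CpG-rich promoters in general. Of the 91 genes, 80 were in the top 10% of the biosample 1 list (87.9%, against 66.0% of all open genes and 79.2% of open CpG-rich ones). In the biosample 2 list 41 of 87 were in the top 10% (47.1%, against 40.2% and 44.3%).

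**Figure D1:**
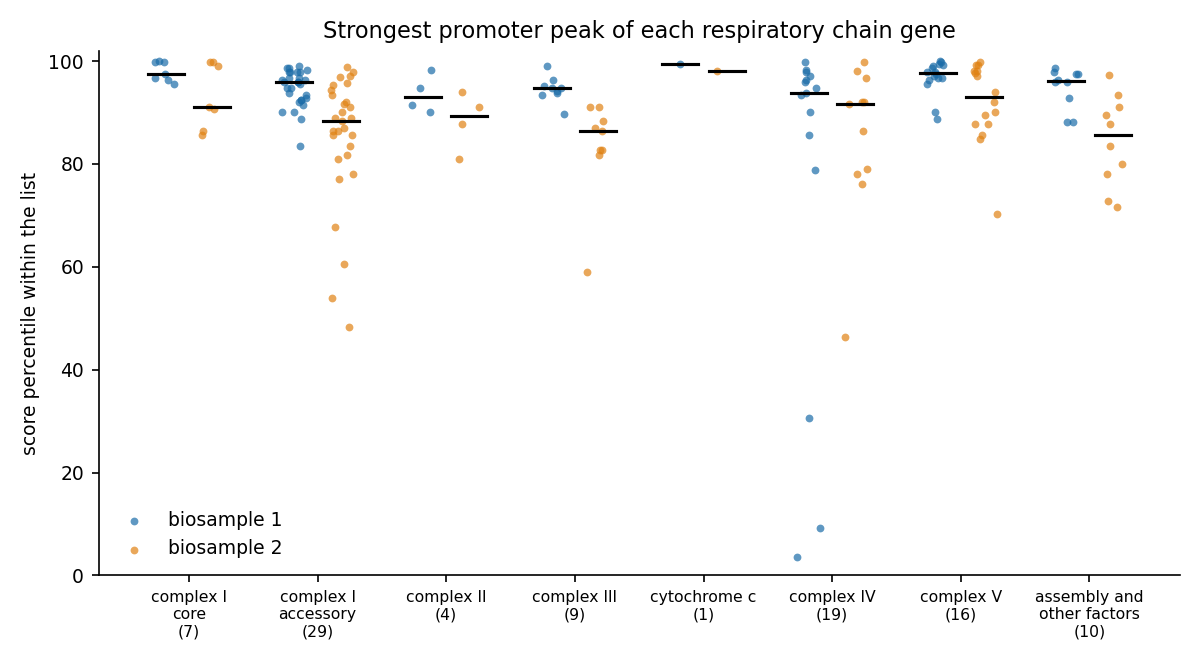
Score percentile within its list (vertical axis, percent) of the strongest promoter peak of each gene, by complex, with the number of genes in parentheses; blue points are biosample 1, orange points biosample 2, and black lines are medians. Most genes lie above 80 in biosample 1, biosample 2 spreads lower, and the low blue points under complex IV are the tissue-restricted isoforms Cox6a2, Cox7b2 and Ndufa4l2, which count in its median there, while genes without a peak are not drawn.

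Core subunits of complex I held some of the highest peaks of all 95 genes. Ndufv1, the flavoprotein subunit that takes electrons from NADH, had scores of 149 and 115, at percentiles 99.9 and 99.9 of the biosample 1 and 2 lists (peak at chr19:4012736-4012885). Ndufs8, an iron-sulfur subunit, had scores of 148 and 116 (percentiles 99.7 and 99.9). Lower values were found at other core genes: Ndufs7 had scores of 138 and 71 with 7 nearby biosample 1 peaks, Ndufs1, which carries iron-sulfur clusters, had 139 and 63, and Ndufs3 had 136 and 62. The medians over the 7 core genes were percentiles 97.5 and 91.1.

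The 29 accessory subunits of complex I, which surround the core and carry no redox centre of the main electron path, had medians of 96.0 and 88.3. Their highest members were Ndufb5 (scores 145 and 96), Ndufa5 (143 and 86) and Ndufa2 (142 and 87). Ndufb5 shared its strongest peak with Mrpl47, a mitochondrial ribosomal protein gene. The lowest were Ndufa1 (121 and 32) and Ndufc2 (111 and 35), both encoding subunits of the membrane arm. In biosample 2 these peaks stood at percentiles 48.3 and 53.8, near the middle of that list, while in biosample 1 they stood at 88.7 and 83.4. Ndufs6, an accessory subunit of the matrix arm, had 128 and 39.

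Complex II oxidizes succinate and is also an enzyme of the citric acid cycle. Its iron-sulfur subunit Sdhb had scores of 143 and 77 (percentiles 98.3 and 93.9), with the peak centre 67.5 bp downstream of the start site in biosample 1. Sdhd, a membrane anchor, had 134 and 71, the other anchor Sdhc had 127 and 65, and the flavoprotein Sdha had 124 and 56. The order of the 4 genes was the same in both lists, although the differences between neighbours were not tested.

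The 9 genes of complex III had medians of percentiles 94.7 and 86.4. Uqcr10 (145 and 66), Uqcrh, the hinge protein (138 and 71), and Uqcrq (132 and 71) had the highest mean percentiles. Uqcr10 and Uqcrh shared their strongest biosample 1 peaks with Zmat5 and Lrrc41. These peaks were centred closer to the start sites of those neighbours, at 47.5 and 141.5 bp. The core protein gene Uqcrc1 had 123 and 58. Cyc1, which encodes a heme-carrying cytochrome of the complex, had 131 and 38 and fell at percentile 58.9 of the biosample 2 list. Cycs, the soluble electron carrier between complexes III and IV, was high in both lists, with 147 and 92 (percentiles 99.5 and 98.1).

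Among the 11 widely used genes of complex IV the medians were percentiles 96.0 and 91.6. Cox8a led with scores of 149 and 111 (percentiles 99.9 and 99.8), ahead of Cox6a1 (138 and 91) and Cox5b (134 and 85). Cox6b1 had 124 and 51. Cox4i1, the widely used form of subunit IV, was the lowest, with 115 and 31. Its peak (chr8:120668116-120668265 in biosample 1) stood at percentile 85.6 of the biosample 1 list and at 46.3 of the biosample 2 list, the lowest of all 87 genes open in both.

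Complex V had the highest median in both lists among the complexes with more than 1 gene here, at percentiles 97.7 and 93.0 over 16 genes. Atp5g1, one of the genes for the c subunit of the membrane rotor, had 150 and 114 (percentiles 99.97 and 99.88). The other c-subunit genes, Atp5g2 and Atp5g3, whose mature protein is the same, had 142 and 87, and 141 and 68. Atp5f1, which encodes subunit b of the peripheral stalk, had 148 and 101, and Atp5d, the delta subunit of the central stalk, had 147 and 91. The lowest were Atp5a1, the alpha subunit of the catalytic head, with 121 and 61, and Atp5mpl, a small membrane proteolipid, with 124 and 46. By part of the enzyme the biosample 2 medians were 97.8 for the 4 peripheral stalk genes and 97.1 for the 3 c-subunit genes. They were 90.1 for the 5 genes of the F1 part and 86.7 for 4 other membrane subunits. Of the peripheral stalk genes, Atp5f1 and Atp5j shared their strongest biosample 1 peaks with Wdr77 and Gabpa. These peaks were centred 1.5 and 45.5 bp from the start sites of those neighbours.

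The 10 factors had medians of 96.2 and 85.6. The complex I assembly factors Ndufaf7 (142 and 88), Ndufaf5 (141 and 76) and Ndufaf8 (144 and 71) were highest, and Ndufaf2 (130 and 47) and Ndufaf6 (120 and 48) lowest. Over all classes, 78 of the 87 genes open in both lists lay above percentile 75 in each of them (89.7%, against 69.1% of all genes open in both lists and 74.7% of the CpG-rich ones).

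The tissue-restricted isoforms differed from their widely used partners in every pair. No peak of either list came within 1000 bp of a start site of Cox4i2, known from lung, of Cox6b2 and Cox8c, both known from testis, or of Cox8b, known from heart, skeletal muscle and brown fat. For Cox4i2 the peak nearest to a start site lay 3402 bp away in biosample 1, as 1 of 4 peaks within the gene farther than 1000 bp from a start site, and 11,448 bp away in biosample 2. For Cox6b2 these distances were 4367 and 11,587 bp, for Cox8c 13,311 and 13,291 bp, and for Cox8b 2890 and 2870 bp. The partners Cox4i1, Cox6b1 and Cox8a had peaks within 1000 bp in both lists, as given above.

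The other 4 isoforms had a single promoter peak each, in biosample 1 alone. The biosample 1 list thus had one at 4 of the 8 isoforms, against 62.6% of all protein-coding genes. All 8 isoforms were CpG-poor by the ratio given below. Of all CpG-poor genes, 4862 of 11,656 had a promoter peak in that list. Cox6a2, the heart and skeletal muscle form, had a peak of score 30 at percentile 3.57, where its partner Cox6a1 stood at 96.4. Cox7b2 had a peak of score 36 at percentile 9.13, against 93.8 for Cox7b (132 and 73). Ndufa4l2, which is known to rise in hypoxia, had a peak of score 50 at percentile 30.6, centred 803.5 bp downstream of its start site, against 96.0 for Ndufa4 (137 and 72). Cox7a1, another heart and skeletal muscle form, had the strongest of these peaks, with a score of 103 at percentile 78.8 (chr7:30184036-30184185, centre at −33.5 bp from the start site). Its partner Cox7a2 stood at 97.9, with scores of 142 and 73. The hotspots under the peaks of Cox6a2, Cox7b2 and Ndufa4l2 had −log10 q values of 2.51, 2.37 and 1.71, while that under the Cox7a1 peak reached 100, the highest value the lists hold. In biosample 2 the peaks nearest to the start sites of Cox6a2, Cox7a1, Cox7b2 and Ndufa4l2 lay 1909, 2559, 2400 and 1882 bp from them. The one at Cox7b2 lay within the gene, which held 2 such peaks in each list. Because the biosample 2 list is shorter, a weak site could be missing from it for lack of depth, and this was not tested.

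**Figure D2:**
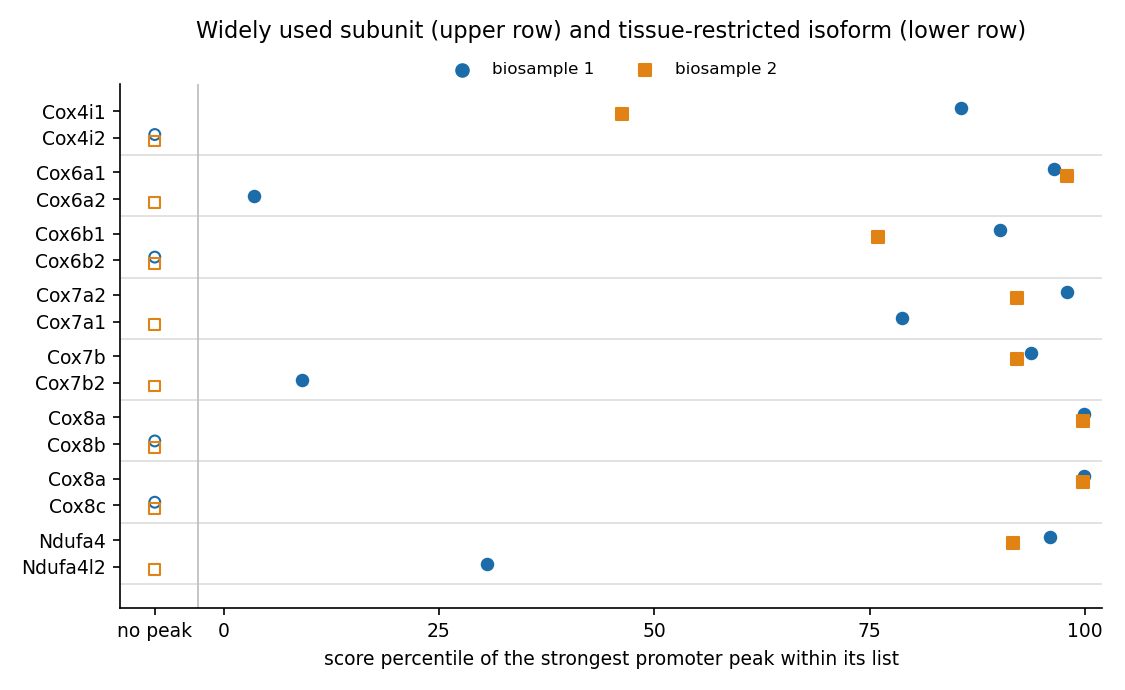
Score percentile (horizontal axis) of the strongest promoter peak for 8 pairs of a widely used subunit gene (upper row) and its tissue-restricted isoform (lower row), with blue circles for biosample 1 and orange squares for biosample 2; open symbols at the left mean that no peak lay within 1000 bp. Each widely used gene has a filled symbol in both lists, no isoform has one in biosample 2, and Cox7a1 is the one isoform above percentile 75 in biosample 1.

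The promoters of both kinds of gene also differed in sequence. A promoter was called CpG-rich where the ratio of observed to expected CpG reached 0.6 over a window of 1000 bp with the gene's first start site at its centre, and 76 of the 95 genes met this (80.0%, against 46.6% of all protein-coding genes). All 76 were open in both lists, against 80.2% of all CpG-rich genes. Of the 19 CpG-poor genes 11 were open in both, against 27.1% of all CpG-poor genes, and the 8 that were not were the isoforms. Their ratios ranged from 0.19 (Ndufa4l2) to 0.47 (Cox7b2), where those of the other 87 genes ranged from 0.22 to 1.04. CpG content and isoform type move together here, so their parts in the presence of a peak cannot be told apart. The pair with the most similar ratios was Cox7b, open in both lists, with 0.48, and Cox7b2 with 0.47.

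The difference can be read in the bases before the start site. The stretches below are the 150 bases, or the 148 that lie outside exons for Cox6a1, before the most upstream start site, 5′ to 3′ on the gene's strand with each CG in capitals. All 4 genes lie on the minus strand of mm10, Cox8a at chr19:7217617-7217766, Cox8b at chr7:140900447-140900596, Cox6a1 at chr5:115348982-115349129 and Cox6a2 at chr7:128206388-128206537. They are shown because they set 2 widely used genes beside their muscle isoforms.
Cox8a: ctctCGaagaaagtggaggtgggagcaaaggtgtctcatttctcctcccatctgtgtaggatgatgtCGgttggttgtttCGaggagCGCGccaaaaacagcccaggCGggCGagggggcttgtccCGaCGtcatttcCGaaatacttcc
Cox8b: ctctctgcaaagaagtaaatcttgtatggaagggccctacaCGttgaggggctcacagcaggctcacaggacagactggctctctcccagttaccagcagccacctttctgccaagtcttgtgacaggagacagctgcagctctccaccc
Cox6a1: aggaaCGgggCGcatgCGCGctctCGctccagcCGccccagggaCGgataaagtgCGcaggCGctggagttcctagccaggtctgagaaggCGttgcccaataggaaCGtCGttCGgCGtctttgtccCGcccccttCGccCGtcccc
Cox6a2: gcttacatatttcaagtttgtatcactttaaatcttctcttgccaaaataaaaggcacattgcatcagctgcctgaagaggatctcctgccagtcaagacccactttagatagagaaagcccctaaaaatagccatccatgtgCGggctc
Cox8a holds 10 CG and Cox8b 1 at the same GC content of 55.3%, and Cox6a1 holds 17 and Cox6a2 1.

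Among the CpG-poor genes that were open in both lists were Atp5j2 (ratio 0.22) and Atp5f1 (0.46). The ratio depends on the start site taken. The strongest Atp5j2 peak belonged to a start site 470 bp from the most upstream one, where the ratio was 0.50. With the start site nearest to the peak, 79 of the 91 genes with a biosample 1 peak were CpG-rich.

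**Figure D3:**
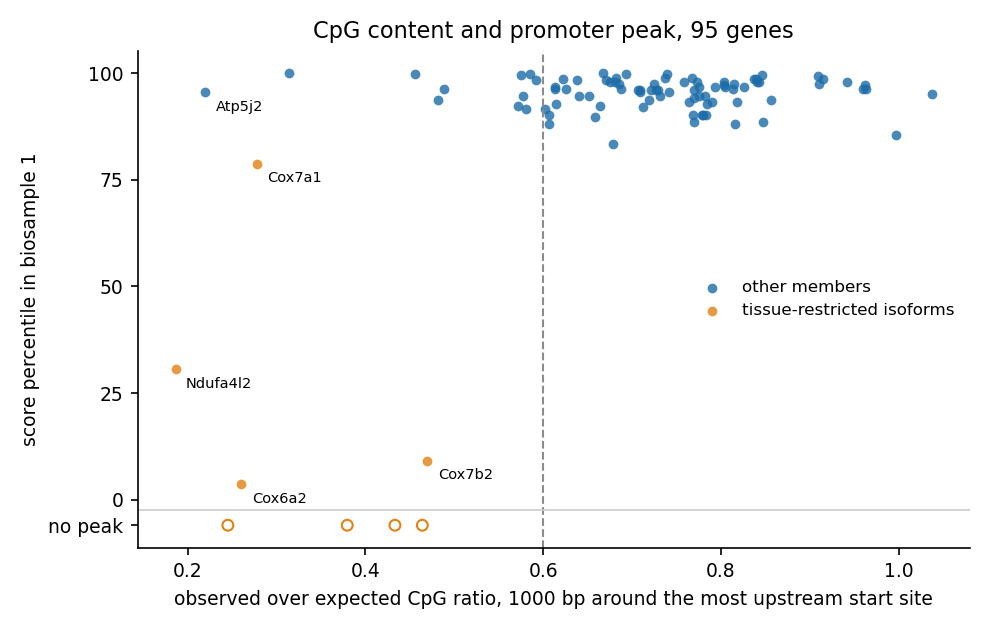
Observed over expected CpG ratio around the most upstream start site (horizontal axis) and score percentile of the strongest biosample 1 promoter peak (vertical axis) for the 95 genes; blue points are widely used genes and factors, orange points the 8 tissue-restricted isoforms, open circles genes with no peak, and the dashed line the threshold of 0.6. No isoform lies right of the line, and 11 widely used genes lie left of it with high percentiles.

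The strongest peaks sat close to the start site. The median distance of the peak centre from the nearest start site, with negative values upstream, was −38.5 bp in biosample 1 (quartiles −75.0 and −9.5) and −37.5 bp in biosample 2. All open genes had medians of −51.5 and −54.5 bp with wider quartiles of −132.5 and 6.5 bp in biosample 1. The centre lay within 100 bp of a start site for 70 of 91 genes in biosample 1 (76.9%). The share there was 53.5% of all open genes and 58.2% of open CpG-rich ones. In biosample 2 the centre lay as close for 69 of 87 genes (79.3%, against 57.5% and 59.2%). The peak covered a start site in 62 of the 91 genes (68.1%, against 44.2%). Cytosolic ribosomal protein genes were alike, with 76.3% within 100 bp in biosample 1, as were mitochondrial ribosomal protein genes with 80.8%.

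**Figure D4:**
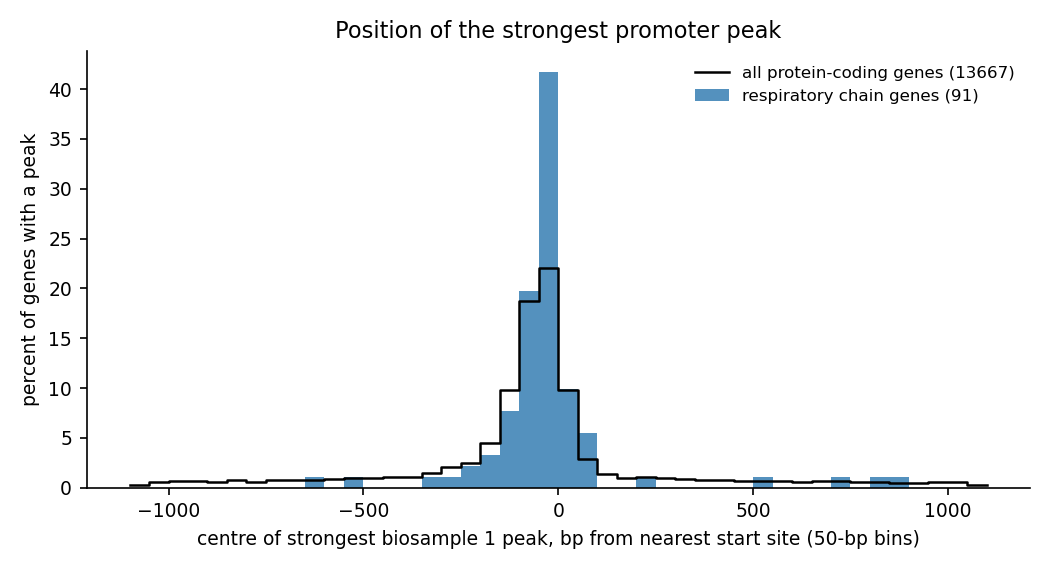
Distance in bp (50-bp bins, negative upstream) between the centre of the strongest biosample 1 promoter peak and the nearest start site, as percent of the 91 respiratory chain genes with a peak (blue bars) and of all 13,667 protein-coding genes with one (black line). The bars are tallest in the bin just upstream of the start site and stand above the line there.

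Of the 3 genes whose strongest peak lay farthest from a start site, Ndufa4l2 is described above, and the other two shared the peak with a neighbour. The strongest Ndufa13 peak was centred 867.5 bp downstream of the Ndufa13 start site, closer to the start of Tssk6, and was also the strongest peak of Yjefn3. The strongest Atp5f1 peak lay 728.5 bp downstream, 1.5 bp from the start site of Wdr77. In all, 13 members had a strongest peak whose centre was closer to another protein-coding gene's start site (14.3% of 91, against 8.81% of all open genes and 11.1% of CpG-rich ones).

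Shared promoters were common. A protein-coding start site on the other strand that points away lay within 1000 bp at 31 of the 95 genes (32.6%). Among all protein-coding genes 9.86% had one, and among CpG-rich genes 17.3%. The mitochondrial ribosomal protein genes had 26 of 78 (33.3%) and the cytosolic ones 13 of 76 (17.1%). The share was 35.6% among the 87 widely used genes and factors and 0 of 8 among the isoforms. The closest pairs were Ndufb11 with Rbm10 and Ndufs1 with Eef1b2, both 3 bp apart, and Ndufa7 with the ribosomal protein gene Rps28, 10 bp apart. Sdhd lay 98 bp from Timm8b, which encodes a chaperone of mitochondrial import, Ndufs6 lay 51 bp from the mitochondrial ribosomal protein gene Mrpl36, and Atp5j shared its strongest peak with Gabpa, a regulator of respiratory chain genes, 686 bp away. For 30 of the 91 genes (33.0%, against 16.6% of all open genes) the strongest peak was also that of another gene, and such a peak cannot be assigned to one gene of the pair. Leaving out the 31 genes, 56 of the other 64 were open in both lists. That the 8 exceptions were the isoforms was fixed in advance, because no isoform had such a partner and every other member was open in both lists.

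For the 87 genes with a peak in both, the strongest peaks were a median of 20 bp apart, as over all genes, which is 1 step of the 20-bp grid on which the 150-bp windows lie. They overlapped at 82 genes (94.3%, against 90.1% of all genes open in both) and had the same position at 30 (34.5%, against 31.6%). The percentile was higher in the biosample 1 list for 80 of the 87 (92.0%, against 94.9% of all genes), by a median of 6.98 points, where all genes had a median of 9.28. The lists differ in length, so this does not compare levels between the biosamples. The largest gaps were 40.4 points at Ndufa1, 39.3 at Cox4i1 and 29.6 at Ndufc2, with Cyc1 and Ndufs6 next. The hotspots reached the cap of 100 in −log10 q at 88 of 91 genes in biosample 1 (96.7%, against 91.1% of all open genes and 97.5% of CpG-rich ones). In biosample 2 they reached it at 82 of 87 (94.3%, against 79.1% and 82.9%), where Ndufa1, Cox4i1, Ndufc2, Cyc1 and Ndufb6 (4.46, 5.70, 5.15, 2.83 and 4.27) did not. Their median width at these genes was 1544 bp in biosample 1 and 597 bp in biosample 2.

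Nuclear respiratory factor 1 (NRF1), the ETS factor GABP and YY1 are known to bind promoters of respiratory chain genes, and estrogen-related receptors (ERR) act with the coactivator PGC-1α on many of them. The strongest biosample 1 promoter peak of each gene was searched on both strands for the letters of 11 motifs, each named for the factor or class that is known to bind it. Matches of different motifs were counted independently, and NRF1 letters can match both strands at one place. A match describes letters in a window, not a bound site.

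NRF1 letters (GCGCANGCG) were found in 19 of 91 genes (20.9%), against 7.83% of all genes with such a peak, 10.2% of CpG-rich ones, 14.1% of mitochondrial and 7.9% of cytosolic ribosomal protein genes. The 19 were 6 accessory subunits of complex I, Sdha and Sdhd, Uqcr11, Cycs, Cox6a1 and Cox6c, 4 genes of complex V (Atp5h, Atp5k, Atp5mpl and Atp5o) and the factors Cox7a2l, Ndufaf4 and Ndufaf5. None of the 7 core subunits of complex I had one. Sdha held 3 matches, at −54, −11 and 34 bp from the start site. ETS letters (CCGGAAG) were likewise found in 19 of 91 (20.9%), against 12.6% of all genes, 16.0% of CpG-rich ones, 28.2% of mitochondrial and 25% of cytosolic ribosomal protein genes. In 250 bases before to 50 after the start site the ETS share was 19.8%, below the 21.5% of CpG-rich genes. ETS matches lay downstream of the start site in 15 of 21 cases (71.4%, against 35.1% over all genes). Matches and not genes are counted here, so Ndufb9 and Ndufs3 enter more than once. The matches at Atp5j, Ndufa4l2 and Ndufa13 lay 469, 835 and 902 bp downstream, and the Atp5j and Ndufa13 peaks are shared with neighbours. YY1 letters (AAGATGGCG) were found in 4 genes (Ndufa2, Ndufa9, Ndufs4 and Uqcrh, 4.4%), against 1.42% of all genes and 1.86% of CpG-rich ones. Mitochondrial ribosomal protein genes had a higher YY1 share of 8.97%, and cytosolic ones had 1.32%.

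At least 1 of the NRF1, ETS and YY1 motifs was present in 38 of the 91 genes (41.8%), against 20.3% of all genes, 26.04% of CpG-rich ones, 32.9% of cytosolic and 44.9% of mitochondrial ribosomal protein genes. Atp5h, Atp5k, Sdhd and Uqcr11 held both NRF1 and ETS letters. ERR letters (CAAGGTCA) were found at Sdhd and Atp5g3 alone (2.2%), against 0.446% of all genes and 0.28% of CpG-rich ones. The ERR shares of cytosolic and mitochondrial ribosomal protein genes were 0% and 1.3%. These rest on few genes, and in longer windows the mitochondrial ribosomal share was closer to or above that of the members. CRE letters (TGACGTCA) were found at Cycs, Ndufa10 and Uqcrfs1 (3.3%), against 2.4% of all genes and 2.9% of CpG-rich ones. The CRE shares of cytosolic and mitochondrial ribosomal protein genes were 5.3% and 2.6%. ZNF143 letters (ACTACAA) were found at Atp5o, Cox7c, Ndufa3, Ndufb2 and Uqcr10 (5.5%), against 3.1% of all genes and 3.2% of CpG-rich ones. The ZNF143 shares of cytosolic and mitochondrial ribosomal protein genes were 10.5% and 3.8%. SP/KLF letters (GGGGCGG), in 19 genes or 20.9%, were below the 25.2% of all genes. NF-Y letters (CCAATNA), in 12 genes or 13.2%, were close to the 14.1% of all genes. E-box letters (CACGTG) were found at Ndufa7 and Ndufa4l2 (2.2%), against 6.19% of all genes. TATA letters (TATAAA) were found at Ndufa7 and Ndufs7 (2.2%), against 2.53% of all genes. AP-1 letters (TGANTCA) were found at Ndufa5 alone (1.1%, against 7.38% of all genes and 3.57% of CpG-rich ones). The AP-1 shares of cytosolic and mitochondrial ribosomal protein genes were as low, at 1.3% and 1.3%. In longer windows the AP-1 and E-box shares were closer to those of all genes. In 300 bp centred on the peak E-box letters were found in 8.8% of members, against 9.9% of all genes, and in 250 bases before to 50 after the start site AP-1 letters were found in 5.5%, against 6.1%. In 29 of the 91 genes (31.9%, against 39.0%) none of the 11 motifs was found, among them Ndufv1, Atp5g1 and Cox8a, which are among the genes with the highest scores.

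**Figure D5:**
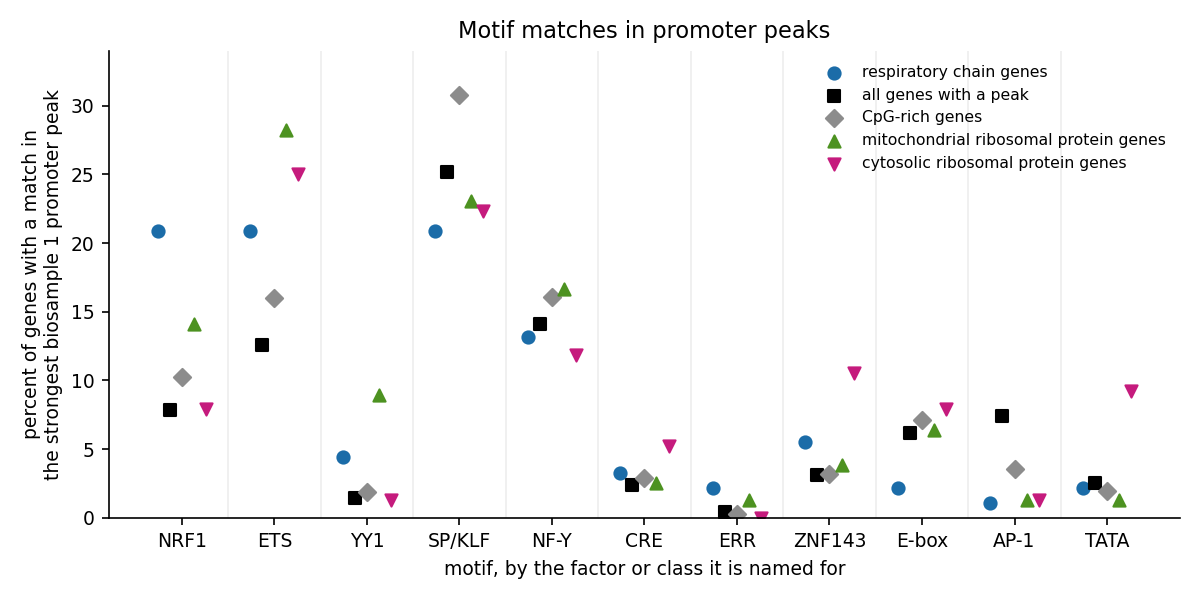
Percent of genes (vertical axis) whose strongest biosample 1 promoter peak holds a match of each motif, for the 91 respiratory chain genes, all 13,667 genes with such a peak, the CpG-rich genes among them, and the ribosomal protein genes of mitochondria and cytosol. Respiratory chain genes have the highest NRF1 share of these groups, at 20.9%, and a lower ETS share than either ribosomal group.

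The peaks of 5 genes show where such letters lie. The stretches below are the parts of the strongest biosample 1 peak outside annotated exons, read 5′ to 3′ on the gene's strand, which is the minus strand of mm10 for all 5, with the matches in capitals. For each of these motifs the gene with the highest mean percentile among those with a match outside exons was taken. Cycs (chr6:50566616-50566642) shows NRF1 letters, Cox6a1 (chr5:115349036-115349129) NRF1 letters at 2 places around 1 SP/KLF match, Atp5e, the epsilon subunit of ATP synthase (chr2:174464106-174464225), ETS letters, Ndufs8 (chr19:3912816-3912965) 2 NF-Y matches, and Atp5g3 (chr2:73911327-73911465) an NF-Y match followed by ERR letters.
Cycs: accatgctagctCGCATGCGCgcgcac
Cox6a1: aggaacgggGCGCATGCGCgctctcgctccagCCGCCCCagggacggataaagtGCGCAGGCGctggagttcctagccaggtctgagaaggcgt
Atp5e: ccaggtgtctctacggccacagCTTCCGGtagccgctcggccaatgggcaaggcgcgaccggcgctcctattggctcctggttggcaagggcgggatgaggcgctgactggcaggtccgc
Ndufs8: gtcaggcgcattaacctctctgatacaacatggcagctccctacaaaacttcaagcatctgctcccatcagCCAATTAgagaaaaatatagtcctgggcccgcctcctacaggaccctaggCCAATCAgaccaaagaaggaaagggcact
Atp5g3: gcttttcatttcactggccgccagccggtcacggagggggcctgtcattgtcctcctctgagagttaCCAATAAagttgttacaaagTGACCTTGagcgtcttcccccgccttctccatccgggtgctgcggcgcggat
In Cycs and Atp5e the letters lie on the strand opposite to the gene, as do the ERR letters of Atp5g3, while both NF-Y matches of Ndufs8 lie on the gene's own strand.

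The regulators of these genes were mostly open too. Of 21 listed regulators 18 had a promoter peak in both lists (85.7%, against 51.8% of all protein-coding genes and 80.2% of CpG-rich ones). CpG-rich promoters were found at 90.5% of the regulators. Nrf1 had scores of 139 and 55, Gabpa 146 and 91, Yy1 142 and 74, and Tfam, whose protein packages mitochondrial DNA and activates its transcription, 126 and 51. Esrra, the ERRα gene, had 141 and 90, while Esrrb and Esrrg, its relatives, had no promoter peak in either list. Ppargc1a, which encodes PGC-1α, had a peak in biosample 1 alone (score 135, percentile 95.1), and its paralog Ppargc1b had peaks in both (114 and 34, percentiles 85.1 and 52.0). Of 38 assembly factors outside the symbol rule 37 were open in both lists (97.4%). So were 15 of 16 glycolytic enzyme genes (93.8%), and Aldoc had a peak in biosample 1 alone. All 78 mitochondrial and all 76 cytosolic ribosomal protein genes were open in both lists. The share open in both lists was therefore as high in other widely used gene groups as in the respiratory chain.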

How the data were processed

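DNase-seq lists of 3T3-L1 cells were used. Per the labels, samples are numbered by biological and technical replicate, and 1 peak list and 1 hotspot list per biosample were deposited in mm10 from both libraries. The aligner and peak caller are not given in the sources used here. Whether the biosamples came from separate cultures is not stated in the labels. Each deposited peak has a score made by the authors, a whole number up to 150, which was ranked within its list as the percentile of its mid rank. Each deposited hotspot has a −log10 q-value, capped at 100 and used only to describe. No read counts were in the files, so depth was unknown.

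Peaks were assigned with Python 3.11.15 and pandas 2.3.3 to GENCODE M21 genes on chromosomes 1 to 19, X and Y (54,355 start sites of protein-coding transcripts), where the nearest base came within 1000 bp. Atp5o has 2 annotation records, which were merged. Distances run from the peak centre to the nearest start site. A gene's strongest peak is that with the highest score. Every interval was checked to lie within the chromosomes of the reference (GRCm38.p6), from which all sequences were read (RefSeq). The assignment and the motif search were tested on simulated data. No test was made.

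The genes and gene lists were chosen with earlier results of these data known. Named are all tissue-restricted isoforms and their partners, per class the 3 genes with the highest and the 2 with the lowest mean percentile, complex II, Cyc1, Cycs, the 5 largest differences between lists, the 3 genes with most peaks, the 3 farthest peaks, the genes of shared peaks and of motif matches, and 7 regulators. A gene that this rule gives is not reported here. Genes singled out beyond these (shared promoters, hotspots below the cap, CpG-poor genes, other regulators) were chosen after their values were seen. Alternatives covered the window, the start sites, the score, hotspots, single lists, the motif window and the CpG and divergence thresholds.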

Additional observations from a re-analysis of the deposited data

Results flagged for a closer look

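Signal outside the genes described lay on the mitochondrial chromosome, which encodes the other subunits of the respiratory chain. Each list held peaks there, 17 in biosample 1 and 17 in biosample 2, with scores from 124 to 150 and a median of 150 in both lists. All 17 had the same position and the same score in both lists, while among 30,911 peaks at the same position in both lists on all other sequences 1 had the same score. Hotspots on that chromosome covered 10,330 bp in each list. No control sample was among the data used here.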

How the results depend on the processing

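Of 175 recomputed values for 32 results, 156 stayed near the reported value, none reversed and 19 moved. These labels refer to the members' own values, not to their order beside other genes. That order did change, for example for NF-Y and TATA letters against all genes and for ETS letters against CpG-rich genes, as given below. The number of genes open in both lists was 85 with a 500-bp window, 86 with the most upstream start site alone, 85 with the stronger 50% of each list and 87 with hotspots, against 49.5%, 48.4%, 46.2% and 52.1% of all genes. It was 56 (of 64) without genes that have a divergent partner, by construction of fewer genes. Tissue-restricted isoforms numbered 2 with a 2000-bp window and 4 with the biosample 1 list alone. CpG-rich genes numbered 41 at a threshold of 0.75. In 300 bp centred on the peak and in 250 bases before to 50 after the start site, both longer windows, YY1 letters were found in 11 and 7 genes (12.1% and 7.7%, against 3.4% and 2.9% of all genes), CRE in 5 and 5 (5.5% and 5.5%, against 3.1% and 3.3%), ZNF143 in 10 and 8 (11.0% and 8.8%, against 4.9% and 4.5%), E-box in 8 and 7 (8.8% and 7.7%, against 9.9% and 9.6%), AP-1 in 4 and 5 (4.4% and 5.5%, against 10.0% and 6.1%) and TATA in 5 and 7 (5.5% and 7.7%, against 5.8% and 7.6%). YY1 letters were found in these windows in 12.8% and 10.3% of mitochondrial and 9.2% and 5.3% of cytosolic ribosomal protein genes. ZNF143 letters were found in 7.7% and 7.7% of the mitochondrial and 10.5% and 13.2% of the cytosolic ones. The second window gave NF-Y 20 (against 17.9% of all genes) and ERR 4 (4.4%, against 0.97%). In the biosample 2 peak E-box letters were found in 1 gene. NRF1 and ETS shares were above those of all genes in both windows, at 26.4% and 26.4% in 300 bp (12.1% and 18.3% of all genes) and 20.9% and 19.8% in the second window (12.4% and 16.9%). Against CpG-rich genes the ETS share was higher in 300 bp (23.2%) and lower in the second window (21.5%). The NRF1 share of CpG-rich genes was 16.0% in 300 bp and 16.7% in the second window. In 300 bp the members' NRF1 share was close to that of mitochondrial ribosomal protein genes (25.6%). In the second window these genes had 17.9%. Start sites of all transcripts, the alternatives for the distances and those for the other gene lists were chosen after seeing the data. No paired analysis was possible because each biosample has 1 pooled list and no test was made. Unknown depth and a list of biosample 2 that is shorter limit every statement on an absent or weak peak.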
